A study of Homo sapiens with 9 samples.

Results

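ADARB1, also known as ADAR2, is an RNA editing enzyme that exists in human cells with and without a peptide encoded by an Alu exon, an exon born from a primate Alu repeat. The comparison described here is between HEK293 cells expressing the Alu exon inclusion isoform (Long) and cells expressing the Alu exon skipping isoform (Short). It holds 6 of the 9 libraries of the series, 3 Long and 3 Short, chosen by their labels and paired by replicate number (the cell passage). HEK293 is an embryonic kidney cell line that is easily transfected. All groups, including the empty vector (EV) control, were transiently transfected with a Lipofectamine reagent, and poly(A) RNA was collected 48 hours later for stranded libraries. A transient transfection leaves a mixture of cells that took up plasmid and cells that did not, and both isoforms were expressed from the pCMV6 plasmid, which carries the strong viral CMV promoter. Of 54562 genes in the deposited table, 13801 reached a mean of 1 FPKM over the 9 libraries and were tested. FPKM counts fragments relative to the length of a gene in kilobases and to all fragments mapped in that library. The question was whether the Alu exon changed the expression profile when the amount of enzyme mRNA was similar.

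ADARB1 binds double-stranded RNA through its N-terminal domains and converts adenosine to inosine with a C-terminal deaminase domain, into which the Alu exon adds a peptide. Inosine is read as guanosine, so that editing can change a codon, a splice site or the pairing of an RNA, and it need not change the level of the mRNA. The related enzyme ADAR keeps cellular double-stranded RNA from being recognised by the sensors of the interferon response, and ADARB2 is a family member with no known catalytic activity. The same RNA levels can therefore be read for the editing enzymes themselves, for their substrates, for the double-stranded RNA response and for the general state of the cells.

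A primer pair of the study flanks the Alu exon and is shown here because it locates the one designed difference between the groups. The study used flanking primers for splicing in tissues. For the transfected cells it used separate primer sets for total ADARB1 and for each isoform. In GRCh37 the forward primer matches the plus strand at chr21:46603333-46603352 and the reverse primer matches the minus strand at chr21:46604867-46604886, both within exons of ADARB1 (ENSG00000197381, plus strand). All bases are in capitals because the whole primer is the matched part.
ADARB1 forward: GGCTGAAGGAGAATGTCCAG
ADARB1 reverse: GTCCGTAGCTGTCCTCTTGC
On the annotated transcripts of ADARB1 the pair spans 142 bp in 4 transcripts and 262 bp in 6 transcripts. The gene-level FPKM adds up all of these transcripts, so it measures total ADARB1 mRNA and does not show which isoform was made.

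Markers of HEK293 were at similar levels in both groups. Of 10 such markers listed, 8 were matched and tested, such as vimentin (VIM), keratin 8 (KRT8) and neurofilament medium chain (NEFM). The 8 summed to between 595 and 669 FPKM in the Short libraries and to between 625 and 643 FPKM in the Long libraries. PAX2, another of the 8, was at only 2.33 to 2.71 FPKM in these libraries. The leukocyte markers summed to at most 0.423 FPKM in Short and 0.507 FPKM in Long, the hepatocyte markers to at most 0.337 and 0.462 FPKM, and the endothelial markers to at most 0.315 and 0.350 FPKM. HBB and TTR were listed at 0 in every library. The fibroblast markers summed to between 11.4 and 14.4 FPKM in Short and between 11.7 and 14.0 FPKM in Long, nearly all of it from the collagen gene COL1A1. The table holds no counts, so the number of fragments behind each value is unknown. That the replicates came from separate passages is stated in the methods of the study.

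Total ADARB1 mRNA from the Long plasmid was below that from the Short plasmid in each passage, though the difference did not pass the test. The difference of Long minus Short on the log2(FPKM + 1) scale was -0.16 in passage 1, -0.27 in passage 2 and -0.40 in passage 3. Its 95% confidence interval in the limma fit ran from -0.63 to 0.09, which includes 0. That fit also held EV, whose ADARB1 hardly varied between passages (SD 0.479 FPKM). The interval therefore does not hold the error of Long against Short alone. Over the 12 alternatives the lowest adjusted p from limma was 0.0633, so equal enzyme mRNA was not established from these values. By qRT-PCR and western blot, the study reported similar expression of both isoforms in its transfected cells. In a bulk library, fewer transfected cells and less mRNA per transfected cell cannot be told apart. The spread between passages was wider than the difference between isoforms: the SD was 1140 FPKM over the 3 Short libraries and 922 FPKM over the 3 Long libraries.

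**Figure D1:**
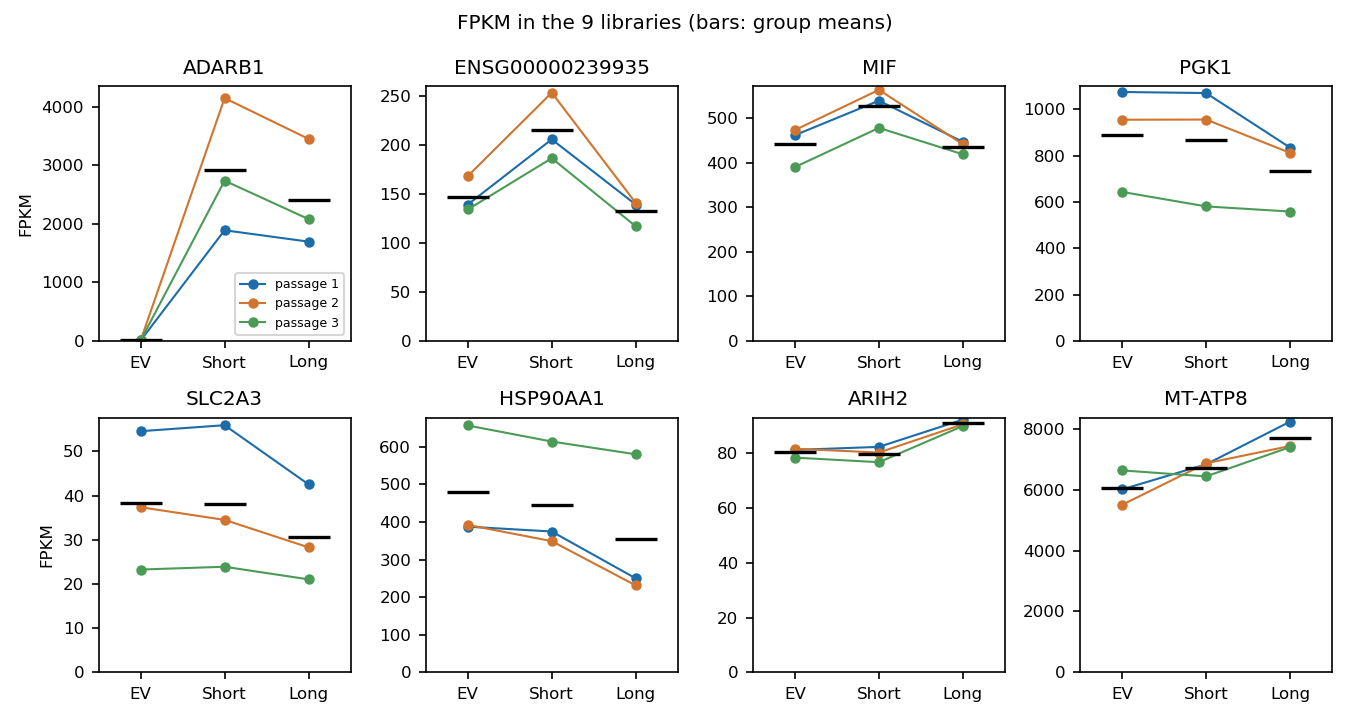
FPKM of 8 genes (vertical axes, each starting at 0) in the EV, Short and Long libraries; points are libraries, lines join the libraries of one passage and black bars are group means (n = 3). ADARB1 is near the bottom of the axis in EV and high with both plasmids, ENSG00000239935 and MIF are highest in Short in every passage, and ARIH2 and MT-ATP8 have their highest group mean in Long.

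Across the genes tested, the profiles of the isoforms were close. At an adjusted p under 0.05 (limma with Benjamini-Hochberg adjustment), 1 of 13801 genes (0.00725%) differed between Long and Short. The lowest adjusted p after it was 0.534. At an unadjusted p under 0.05 there were 1040 genes, of which 818 (5.93% of those tested) were lower and 222 (1.61%) were higher in Long. These lists describe which genes came nearest to a difference, and none of their members but the first passed the adjusted test. The median log2 difference over all genes was -0.02, the median standard error was 0.084, and 93.23% of the genes had a 95% interval that lay within 0.5 of 0 on the log2 scale. For 99.57% of the genes the interval lay within 1 of 0. Without the replicate block, 0 genes passed the adjusted test and 147 passed the unadjusted one, 63 higher and 84 lower. The 818 lower genes had a median GC content of 39.4% and a median transcript length of 4515 bases, against 47.8% and 3730 bases for all genes tested. The 222 higher genes had 46.1% and 3420 bases. Over all genes with a GC content, its Spearman correlation with the log2 difference was only 0.037. After a correction for GC content the unadjusted calls were split into 520 higher and 559 lower. The split was 279 higher and 424 lower without replicate 1, 194 and 417 without replicate 2, and 195 and 1051 without replicate 3. Counts of a list under these settings are best read against these numbers. The part of transcript length in the lower values was not tested.

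The passages agreed weakly on the direction of single genes. The log2 ratio of Long to Short had a Pearson correlation across the 13801 genes of 0.195 between passages 1 and 2, 0.0881 between passages 1 and 3 and 0.184 between passages 2 and 3. Over the 10072 genes that reached a mean of 5 FPKM the correlations were 0.289, 0.158 and 0.272. Genes are not independent replicates, and each ratio shares its libraries with every other gene of that passage, so these are descriptions. The ratio was below 0 in all 3 passages for 2557 genes (18.5%) and above 0 in all 3 for 1404 genes (10.2%). The SD of the ratios across genes was 0.202, 0.2005 and 0.161 in passages 1, 2 and 3, and the median ratio was -0.083, -0.0069 and 0.021. Passage 1 thus lay below 0 as a whole, and a gene's value in that passage is best read against this shift.

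The gene past the adjusted test was ENSG00000239935, an identifier that has no entry in the annotation used here, so its product is not named. It was at 205 FPKM, 253 FPKM and 186 FPKM in the Short libraries of passages 1, 2 and 3, and at 139 FPKM, 141 FPKM and 117 FPKM in the Long libraries. The highest Long library was below the lowest Short library. The log2 difference was -0.69 (standard error 0.059, 95% interval -0.82 to -0.56, limma adjusted p = 0.00392), and it was -0.56, -0.84 and -0.67 within the passages. The EV libraries had 139 FPKM, 168 FPKM and 134 FPKM. Long minus EV was -0.15 (adjusted p = 0.151 from limma) and Short minus EV was 0.54 (adjusted p = 0.0115 from limma), both against the same EV libraries. An exact two-sided permutation test gave p = 0.1 for 3 libraries against 3 and p = 0.25 for the 3 pairs, each the smallest p that these designs allow. The limma call was lost without replicate 1 (adjusted p = 0.121), with no trend in eBayes (adjusted p = 0.17), with no filter on low values (adjusted p = 0.437) and without the replicate block (adjusted p = 1.0), while the difference stayed between -0.76 and -0.61.

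Among the genes ranked next by the moderated t statistic, with a mean of 5 FPKM or more and the same sign in the 3 passages, the lowest was MIF, which encodes macrophage migration inhibitory factor, a small secreted cytokine. MIF (ENSG00000240972, GRCh37 chr22:24236570-24237414, plus strand) had 540 FPKM, 564 FPKM and 479 FPKM in Short and 447 FPKM, 442 FPKM and 419 FPKM in Long. All Long libraries were below all Short libraries, and the EV libraries, at 462 FPKM, 474 FPKM and 391 FPKM, lay near Long. The log2 difference was -0.27 (standard error 0.046, adjusted p = 0.534 from limma), which did not pass the test. RN7SK, the 7SK RNA that holds the elongation factor P-TEFb inactive, had 10.3 FPKM, 7.90 FPKM and 8.59 FPKM in Short and 2.94 FPKM, 6.57 FPKM and 3.35 FPKM in Long. The groups did not overlap, but passage 2 differed far less than the other passages, and 7SK is an RNA without a poly(A) tail in libraries that select for one. Its log2 difference was -0.96 (standard error 0.18, adjusted p = 0.547 from limma), and without replicate 2 it passed the test, at -1.33 (adjusted p = 0.00536 from limma).

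LPP, a focal adhesion protein of the zyxin family, had 11.8 FPKM, 7.22 FPKM and 9.71 FPKM in Short and 5.11 FPKM, 5.23 FPKM and 6.68 FPKM in Long. The groups did not overlap, and the log2 difference was -0.65 (standard error 0.13, adjusted p = 0.547 from limma). NAMPT, the enzyme that starts the salvage of nicotinamide to NAD, had 57.9 FPKM, 43.7 FPKM and 56.6 FPKM in Short and 39.6 FPKM, 28.0 FPKM and 50.6 FPKM in Long. NAMPT was lower in Long in each passage although the groups overlapped. The 4 others at the low end of the ranking were MARCHF7, a ubiquitin ligase, DNAJB4, a heat shock cochaperone, NEDD1, which brings gamma-tubulin to the centrosome, and AP5M1, a subunit of an adaptor complex, with log2 differences of -0.28, -0.49, -0.53 and -0.41. For these 4 and for NAMPT the highest Long library was above the lowest Short library, since passage 3 was high in both groups for MARCHF7, DNAJB4, NEDD1 and AP5M1. Against EV, NEDD1 was at -0.86 with Long and -0.33 with Short, MARCHF7 at -0.44 and -0.15, and AP5M1 at -0.48 and -0.07. NAMPT was at -0.58 and -0.14, DNAJB4 at -0.425 and 0.07, and LPP at -0.38 and 0.27.

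At the high end of the ranking, no gene passed the adjusted test either. TESMIN, a metal-binding protein best known from the testis, had 5.02 FPKM, 5.33 FPKM and 3.46 FPKM in Short and 6.49 FPKM, 6.76 FPKM and 6.39 FPKM in Long, a log2 difference of 0.45 (standard error 0.11, adjusted p = 0.547 from limma). ARIH2, a ubiquitin ligase that works with cullin complexes, had 82.3 FPKM, 80.2 FPKM and 76.7 FPKM in Short and 92.3 FPKM, 90.6 FPKM and 89.9 FPKM in Long. ARIH2 and TESMIN did not overlap between the groups, and ARIH2 had 81.2 FPKM, 81.6 FPKM and 78.4 FPKM in EV, near Short. Its log2 difference was 0.19 (standard error 0.046, adjusted p = 0.547 from limma). L3HYPDH, a hydroxyproline dehydratase, was at 0.26, and the readthrough transcript PDXDC2P-NPIPB14P was at 0.31. The other ranked genes were MTCO1P12, ST13P6 and RPL41P1, at 0.42, 0.24 and 0.18, which are pseudogenes that share sequence with MT-CO1, ST13 and RPL41, so that their fragments cannot be told from those of the parent gene with confidence. IRF9 is described with the interferon genes.

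Of the RNA deaminases, ADAR had 67.3 FPKM, 65.2 FPKM and 61.7 FPKM in Short and 66.2 FPKM, 68.1 FPKM and 60.1 FPKM in Long. The groups overlapped fully, and the 95% interval of the log2 difference ran from -0.11 to 0.11. ADARB2 was near the filter on low values in all groups, with 1.23 FPKM, 1.42 FPKM and 0.912 FPKM in Short and 0.958 FPKM, 1.05 FPKM and 0.785 FPKM in Long. The tRNA deaminases ADAT1, ADAT2 and ADAT3, which edit the wobble and neighbouring bases of tRNA anticodons, had log2 differences of 0.08, 0.05 and -0.16, and none passed the adjusted test. Of the 6 deaminases tested, 0 passed the adjusted or the unadjusted test.

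Genes that regulate or accompany ADARB1 were within narrow limits of each other in the isoforms. Of the 12 tested, 0 had an unadjusted p under 0.05, and all 12 had a 95% interval within 0.5 of 0. The list holds WWP2, a ubiquitin ligase that targets the enzyme, and RNA-binding proteins found with it. The members with the smallest p were FXR1, at -0.19 (95% interval -0.40 to 0.02), FMR1, at -0.08 (-0.22 to 0.05), and DHX9, at 0.11 (-0.10 to 0.31). FXR1 and FMR1 are paralogous RNA-binding proteins and DHX9 is a helicase that unwinds double-stranded Alu RNA.

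The mRNAs that ADAR enzymes are known to edit did not differ in level at this error either. Of 27 such genes, the 9 substrates of neurons, such as the glutamate receptor GRIA2 and the serotonin receptor HTR2C, were under the filter of 1 FPKM in these cells. Of the 18 others, 0 had an unadjusted p under 0.05, the median log2 difference was -0.01, and the intervals of 17 lay within 0.5 of 0. NEIL1, a DNA glycosylase that is recoded by editing, had 5.77 FPKM, 7.51 FPKM and 7.14 FPKM in Short and 6.24 FPKM, 6.19 FPKM and 5.24 FPKM in Long. The passages did not agree in sign, and the log2 difference was -0.18 (95% interval -0.47 to 0.12). IGFBP7, a secreted growth factor binding protein, was at 0.09 (-0.08 to 0.27), and SRP9, the substrate of highest level and a protein that binds Alu RNA, was at -0.02 (-0.16 to 0.12).

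Genes of the double-stranded RNA response gave no common direction. Of 11 sensors and adaptors tested, 0 had an unadjusted p under 0.05 and all intervals lay within 0.5 of 0. Of 56 interferon-stimulated genes, 36 were tested, and the median log2 difference was 0.05. At an unadjusted p under 0.05, 2 were higher (5.56%, against 1.61% of all genes tested) and 2 were lower (5.56%, against 5.93%). Without replicate 1 the split was 6 higher and 1 lower, after the GC correction it was 4 higher and 2 lower, and without the replicate block it was 1 higher and 0 lower. Of the 13801 genes tested, 279 were higher and 424 lower without replicate 1. After the GC correction 520 were higher and 559 lower, and without the block 63 and 84. IRF9, the DNA-binding subunit of the interferon-activated factor ISGF3, had 3.86 FPKM, 7.22 FPKM and 4.92 FPKM in Short and 5.40 FPKM, 8.37 FPKM and 6.18 FPKM in Long. It was higher in Long in each passage, with a log2 difference of 0.29 (standard error 0.083, adjusted p = 0.547 from limma), although the groups overlapped. PARP14, an ADP-ribosyltransferase, had 1.55 FPKM, 1.38 FPKM and 1.64 FPKM in Short and 1.99 FPKM, 1.93 FPKM and 2.31 FPKM in Long, with no overlap between the groups. The members lower in Long were IRF1, a transcription factor, at -0.27, and IFI27, a mitochondrial interferon-induced protein, at -0.27. The EV libraries had 2.17 FPKM, 1.84 FPKM and 2.17 FPKM of PARP14 and lay with Long. The antiviral effectors OAS1, MX1 and IFIT2 were under the filter in these cells.

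The widest departure from the bulk of the genes was among genes of glycolysis and the hypoxia response. Glucose is taken up by transporters such as SLC2A1 and SLC2A3 and split by enzymes such as GAPDH and PGK1, and LDHA turns the product to lactate. The transcription factor HIF1A, which oxygen-dependent hydroxylases keep low, raises many of these genes together with the mitophagy receptors BNIP3 and BNIP3L. Of the 32 members tested, 14 (43.8%, against 5.93% of all genes tested) were lower and 0 were higher at an unadjusted p under 0.05, and 0 passed the adjusted test. Of the 32, 19 (59.4%, against 18.5% of all genes tested) were lower in all 3 passages and 0 were higher in all 3. The list was chosen with earlier results of these data known. Its members were measured in the same libraries and are not independent, so these shares are descriptions. The median log2 difference was -0.134 against -0.0185 for all genes, and relative to the median of all genes it was -0.125, -0.111 and -0.0524 in passages 1, 2 and 3. The mean log2(FPKM + 1) of the members was 6.613, 6.299 and 6.067 in the Short libraries of passages 1, 2 and 3, 6.402, 6.149 and 6.019 in the Long libraries, and 6.513, 6.289 and 6.053 in EV. In every group the level was highest in passage 1 and lowest in passage 3, a spread wider than the difference between isoforms, and Long was lower than Short and EV in each passage. The members' median was -0.058 for Long minus EV and 0.056 for Short minus EV, comparisons that share the EV libraries, where all genes tested had 0.039 and 0.041. The median GC content of the members was 51.8%.

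SLC2A3 had 55.9 FPKM, 34.5 FPKM and 23.9 FPKM in Short and 42.5 FPKM, 28.3 FPKM and 21.04 FPKM in Long. Both groups were highest in passage 1, and Long was lower in each passage, with a log2 difference of -0.28 (standard error 0.066, adjusted p = 0.547 from limma). SLC2A3 has a near-identical paralog in SLC2A14, which may share its fragments. PGK1, which makes the first ATP of glycolysis, had 1070 FPKM, 956 FPKM and 581 FPKM in Short, 835 FPKM, 812 FPKM and 559 FPKM in Long and 1075 FPKM, 955 FPKM and 643 FPKM in EV. The Long value was the lowest of its passage in all 3 passages, and the difference was -0.36 in passage 1, -0.23 in passage 2 and -0.06 in passage 3. BNIP3L had 47.6 FPKM, 38.5 FPKM and 39.4 FPKM in Short and 35.6 FPKM, 31.2 FPKM and 37.3 FPKM in Long. Its groups did not overlap, with a log2 difference of -0.26 (standard error 0.072, adjusted p = 0.547 from limma).

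BNIP3 was at -0.21 (95% interval -0.34 to -0.08) and EGLN3, one of the oxygen-dependent hydroxylases, at -0.25 (-0.42 to -0.08). LDHA had 1696 FPKM, 1392 FPKM and 1032 FPKM in Short and 1456 FPKM, 1294 FPKM and 976 FPKM in Long, a log2 difference of -0.13. SLC2A1 was at -0.21, the enolase ENO2 at -0.20, the aldolase ALDOA at -0.15, the hexokinase HK2 at -0.16 and the phosphofructokinase PFKP at -0.13. HIF1A itself had 24.8 FPKM, 28.5 FPKM and 44.7 FPKM in Short and 19.8 FPKM, 21.9 FPKM and 41.8 FPKM in Long. HIF1A was lower in Long in each passage, at -0.26 (95% interval -0.50 to -0.01), and, unlike SLC2A3, PGK1 and LDHA, it was highest in passage 3. ANKRD37, a hypoxia target, had 15.3 FPKM, 5.34 FPKM and 5.27 FPKM in Short and 15.1 FPKM, 3.39 FPKM and 3.10 FPKM in Long, so that it differed in passages 2 and 3 and hardly in passage 1. GAPDH, the most abundant member and a common reference gene, was at -0.11 (95% interval -0.19 to -0.03), whereas ACTB, another reference gene, was at -0.01 (-0.11 to 0.09) and at 0.01 after the GC correction. HK1 was at 0.02, VEGFA, the angiogenic growth factor, at -0.01 and PDK1, which blocks entry of pyruvate into mitochondria, at 0.04, all with intervals that span 0. The number of members lower at an unadjusted p under 0.05 was 1 without the replicate block, 8 with no trend in eBayes, 6 without replicate 1 and 5 without replicate 2. The median of the list stayed below 0 under every alternative, though some of these, such as leaving out the block, cannot change it.

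**Figure D2:**
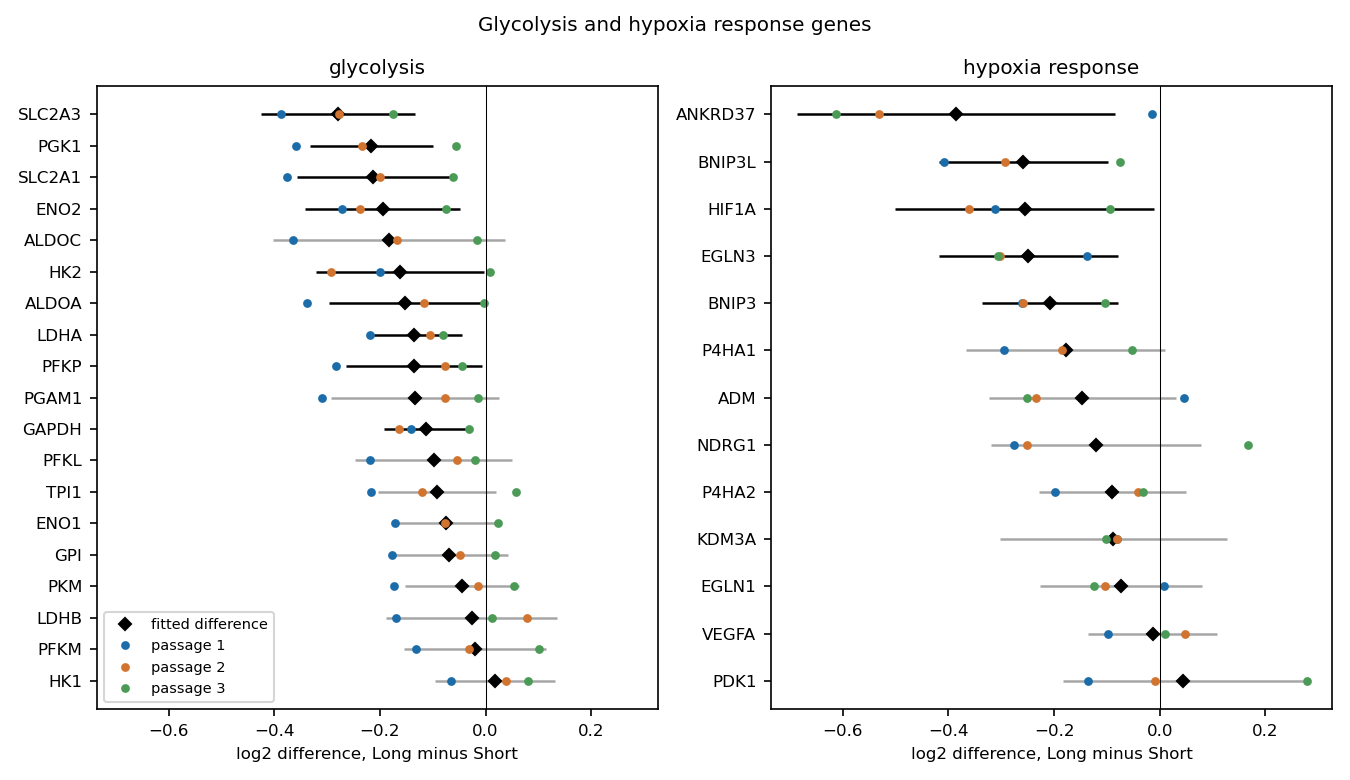
Log2 difference of Long minus Short on the log2(FPKM + 1) scale (horizontal axes) for the 19 glycolysis genes and 13 hypoxia response genes tested. Diamonds are fitted differences, lines their 95% intervals (black where the unadjusted p is under 0.05) and coloured points the passages; most diamonds lie left of 0, and passage 3 is mostly nearest to 0.

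The promoters of members of this list are shown because the hypoxia-inducible factors bind the letters ACGTG, a form of the core of the hypoxia response element. Other forms of that core were not searched. The 3 members shown are those of smallest p with a single start site in the RefSeq promoter table (GRCh38.p14, a later build than that of the gene coordinates above). They run for 250 bases up to the start site, 5′ to 3′ along the gene, with ACGTG on either strand in capitals. PGK1 lies at chrX:78103998-78104247 (plus strand), BNIP3 at chr10:131981924-131982173 (minus strand) and SLC2A1 at chr1:42958869-42959118 (minus strand).
PGK1: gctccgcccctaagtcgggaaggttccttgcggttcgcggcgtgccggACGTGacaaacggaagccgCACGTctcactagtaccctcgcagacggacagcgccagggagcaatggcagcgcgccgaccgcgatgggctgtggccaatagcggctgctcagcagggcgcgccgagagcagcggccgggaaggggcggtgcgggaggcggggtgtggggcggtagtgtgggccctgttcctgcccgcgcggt
BNIP3: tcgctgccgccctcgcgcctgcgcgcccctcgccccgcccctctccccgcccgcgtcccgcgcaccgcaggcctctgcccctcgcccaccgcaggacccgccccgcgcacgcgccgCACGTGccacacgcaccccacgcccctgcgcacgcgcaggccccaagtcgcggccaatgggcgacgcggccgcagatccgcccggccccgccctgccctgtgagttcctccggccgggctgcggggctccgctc
SLC2A1: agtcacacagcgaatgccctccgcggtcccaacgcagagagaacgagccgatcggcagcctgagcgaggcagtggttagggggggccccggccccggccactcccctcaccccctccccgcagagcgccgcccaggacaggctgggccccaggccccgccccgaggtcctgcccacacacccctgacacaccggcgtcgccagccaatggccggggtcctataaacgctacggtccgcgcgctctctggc
PGK1 held 2 separate matches, 1 on each strand. BNIP3 held the palindrome CACGTG, which counts as 2 overlapping matches and is also the E-box of other factors. SLC2A1 held no match in this window. Over the full 300-base windows of the table, which reach past the start site, 39.2% of 51 windows of 28 members held the letters, against 21.4% of all 35116 windows. By gene, 57.1% of the 28 members held them in at least 1 window, against 32.5% of the 10216 tested genes in the table. The list was chosen in part for the hypoxia response, so its share of these letters says nothing about Long against Short. A match describes the letters of a window and is not a binding site.

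Heat shock chaperones, which fold proteins and are raised by heat shock factors, held the next lowest median. Of the 18 tested, 6 (33.3%, against 5.93% of all genes tested) were lower and 0 were higher at an unadjusted p under 0.05. In all 3 passages 9 of 18 (against 18.5% of all genes tested) were lower and 1 was higher, and the median log2 difference was -0.098. The number of lower members was 0 without the replicate block, 4 with no trend in eBayes and 3 without replicate 1 or without replicate 2, and the median was -0.024 without replicate 1. HSP90AA1, the inducible form of HSP90, had 375 FPKM, 349 FPKM and 614 FPKM in Short, 250 FPKM, 231 FPKM and 580 FPKM in Long and 388 FPKM, 392.5 FPKM and 657 FPKM in EV. It was lower in Long in each passage, by 0.58, 0.59 and 0.08 on the log2 scale, and passage 3 was high in all groups. The log2 difference was -0.42 (adjusted p = 0.547 from limma), and without replicate 3 it was -0.59 and passed the test (adjusted p = 0.00661 from limma). HSP90AB1, the constitutive form and the member of highest level, was at 0.04 (95% interval -0.06 to 0.14). DNAJB4 had 6.32 FPKM, 6.67 FPKM and 10.6 FPKM in Short and 4.63 FPKM, 4.25 FPKM and 6.98 FPKM in Long, a log2 difference of -0.49 (standard error 0.10, adjusted p = 0.547 from limma). HSPH1 and HSPA4L, which exchange the nucleotide of HSP70, were at -0.28 and -0.33, the small chaperone HSPB1 at -0.14 and the heat shock factor HSF2 at -0.20. HSPA8, the constitutive HSP70, was at 0.07 (-0.03 to 0.17). The median GC content of the list was 43.8%.

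Kinetochore and spindle checkpoint genes and chromatin remodelling genes held some members with larger differences. Of 44 kinetochore and spindle checkpoint genes, 8 were lower (18.2%, against 5.93% of all genes tested) at an unadjusted p under 0.05. In that list 0 were higher (against 1.61%), and the median, at -0.014, was close to that of all genes. The split was 1 lower and 0 higher without replicate 2, 7 lower and 2 higher without replicate 1, 6 lower and 2 higher after the GC correction, and 0 of either without the replicate block. Of the 13801 genes tested, 424 were lower and 279 higher without replicate 1. After the GC correction 559 were lower and 520 higher. NUF2, a subunit of the NDC80 complex that binds microtubules, had 18.5 FPKM, 18.9 FPKM and 24.5 FPKM in Short and 14.3 FPKM, 14.9 FPKM and 22.4 FPKM in Long. NUF2 was lower in each passage, at -0.27 (standard error 0.069, adjusted p = 0.547 from limma). The checkpoint kinase TTK was at -0.36, the centromere protein CENPU at -0.25 and the large kinetochore protein CENPF at -0.78. Against EV, NUF2 was at -0.51 with Long and -0.24 with Short, TTK at -0.73 and -0.37, and CENPU at -0.42 and -0.17. CENPF had 11.9 FPKM, 21.4 FPKM and 47.2 FPKM in Short and 7.87 FPKM, 7.91 FPKM and 33.8 FPKM in Long, which is a wider spread between passages than between isoforms. Cyclin B1 (CCNB1), the member of highest level, was at 0.03 (95% interval -0.09 to 0.15). Against EV it was at 0.08 with Long and 0.05 with Short.

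Of 33 chromatin remodelling genes, 5 were lower (15.2%, against 5.93% of all genes tested) at an unadjusted p under 0.05. In that list 0 were higher (against 1.61%), and the median was -0.042. Without the replicate block 0 were lower, and 3 were lower without replicate 1, without replicate 2 or after the GC correction, with a median of 0.012 without replicate 1. All 5 were among the ATP-dependent remodellers. ATRX had 4.17 FPKM, 7.96 FPKM and 21.01 FPKM in Short and 2.55 FPKM, 2.81 FPKM and 12.3 FPKM in Long, a log2 difference of -0.83 (95% interval -1.41 to -0.26, adjusted p = 0.547 from limma). In EV it had 15.2 FPKM, 12.3 FPKM and 20.5 FPKM. Long minus EV was -1.56 (adjusted p = 0.00965 from limma) and Short minus EV was -0.73 (adjusted p = 0.151 from limma), so the mean was below EV with both plasmids. SMARCA1, an ISWI ATPase, was at -0.23 and CHD9 at -0.57, whereas CHD4, the ATPase of the NuRD complex and the member of highest level, was at 0.08 (-0.06 to 0.22). Against EV, SMARCA1 was at -0.54 with Long and -0.30 with Short, CHD9 at -1.08 and -0.51, and CHD4 at 0.06 and -0.02. The median GC content was 42.3% for the kinetochore list and 46.8% for the remodelling list.

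Genes encoded in the mitochondrial genome lay on the other side. Of the 13 mRNAs, 3 (23.1%, against 1.61% of all genes tested) were higher and 0 were lower at an unadjusted p under 0.05, 5 (38.5%, against 10.2%) were higher in all 3 passages, and the median was 0.050. The number of higher members was 0 without the replicate block or with no filter on low values, 1 without replicate 1 or with no trend in eBayes, and 5 on the TPM scale or with only Long and Short in the fit. MT-ATP8, a subunit of the ATP synthase, had 6829 FPKM, 6862 FPKM and 6433 FPKM in Short and 8229 FPKM, 7431 FPKM and 7393 FPKM in Long. The groups did not overlap, and the EV libraries, at 6007 FPKM, 5501 FPKM and 6629 FPKM, were nearer to Short. The log2 difference was 0.19 (standard error 0.061, adjusted p = 0.547 from limma). MT-ATP6, whose reading frame overlaps that of MT-ATP8 on the same RNA, was at 0.10, and MT-ND4L, a subunit of complex I, was at 0.10. MT-CO2, the most abundant mRNA of the list, was at -0.02 (95% interval -0.12 to 0.08). Without replicate 3 the median of the list was -0.0035, and that of all genes was -0.0397. The 75 nuclear genes of the respiratory chain had a median of 0.00, with 0 higher and 2 lower, NDUFS7 of complex I at -0.15 and COX8A of complex IV at -0.15.

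**Figure D3:**
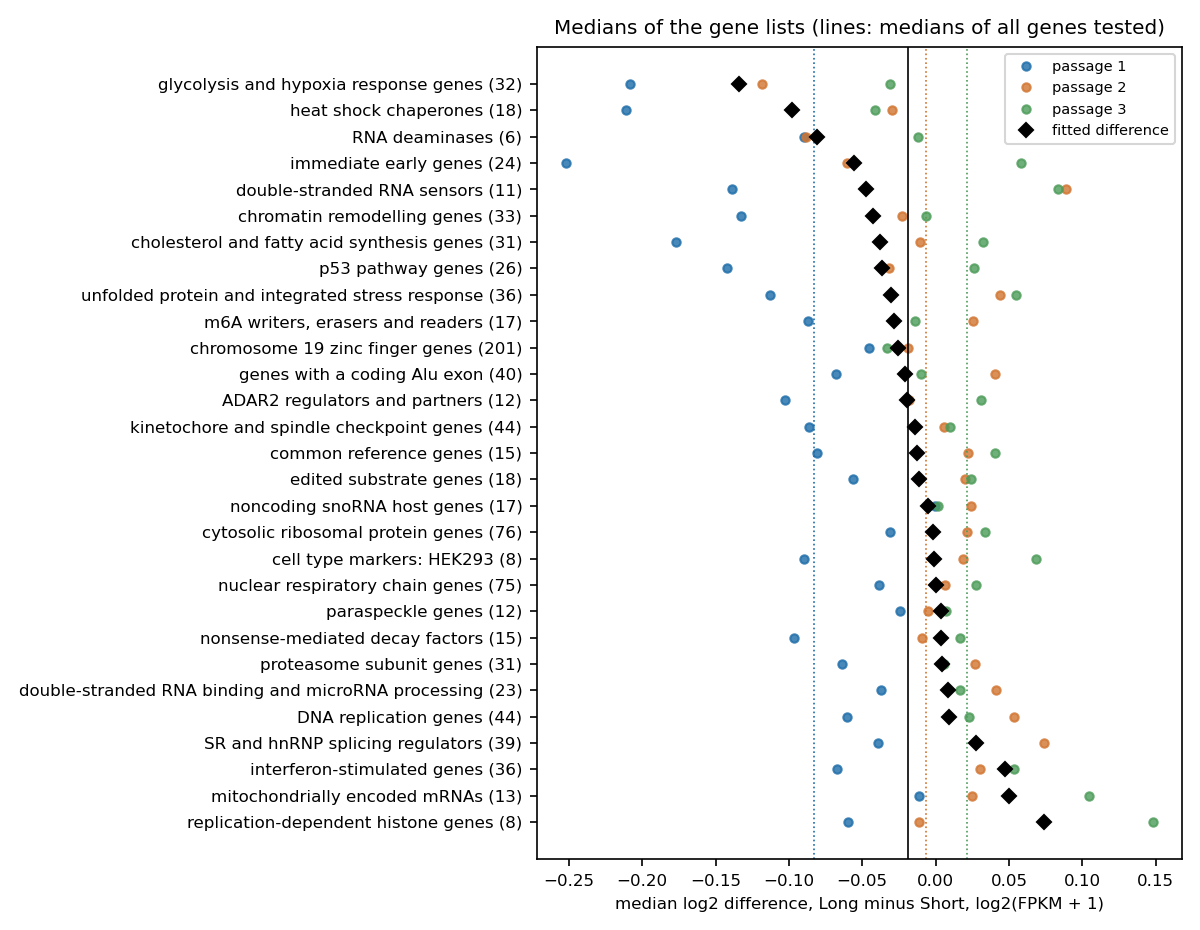
Median log2 difference of Long minus Short (horizontal axis, log2(FPKM + 1) scale) for the gene lists with at least 6 members tested (number in parentheses). Black diamonds are medians of the fitted differences, coloured points medians within a passage and lines the medians of all genes tested; the glycolysis and hypoxia list is lowest at -0.134, and passage 1 lies to the left for most lists.

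The other lists, here and below, are described by the number of members at an unadjusted p under 0.05. Over all genes tested, 5.93% were lower and 1.61% were higher by that measure. Of 76 cytosolic ribosomal protein genes, 0 were higher and 1 was lower, RPL13 of the large subunit at -0.12, and all 76 intervals lay within 0.5 of 0. None of 31 proteasome subunit genes, 23 genes of double-stranded RNA binding and microRNA processing and 17 noncoding snoRNA host genes had an unadjusted p under 0.05. Of 39 SR and hnRNP splicing regulators, SRSF5 was higher at 0.15 and SYNCRIP was lower at -0.15. After the GC correction this list had 10 higher and 0 lower, where 520 of the 13801 genes tested were higher. Of 15 nonsense-mediated decay factors, 1 was lower, UPF3B at -0.16. Of 17 m6A genes, 1 was lower, ZC3H13, a scaffold of the methyltransferase, with 15.02 FPKM, 16.2 FPKM and 34.6 FPKM in Short and 10.3 FPKM, 9.84 FPKM and 29.5 FPKM in Long. ZC3H13 was high in passage 3 in both groups, like CENPF and ATRX, and its log2 difference was -0.46 (95% interval -0.78 to -0.15). In EV it had 25.3 FPKM, 22.3 FPKM and 36.8 FPKM, above both isoforms in each passage, with Long minus EV at -0.88 and Short minus EV at -0.41.

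The paraspeckle list was split, with 2 higher and 2 lower of 12 genes tested at an unadjusted p under 0.05. Each was 16.7% of the list, against 1.61% higher and 5.93% lower of all genes tested. The split was 1 higher and 0 lower without replicate 1, 0 higher and 1 lower without replicate 2, and 0 of either without the replicate block. SFPQ, an RNA-binding protein of the paraspeckle, was among the higher ones, and MATR3, which retains edited RNA in the nucleus, and NUDT21, a cleavage factor, were lower at -0.33 and -0.19. SFPQ had 246 FPKM, 274 FPKM and 311 FPKM in Short and 278 FPKM, 296 FPKM and 326 FPKM in Long. MATR3 had 143 FPKM, 142 FPKM and 237 FPKM in Short and 109 FPKM, 97.8 FPKM and 225 FPKM in Long. SFPQ and MATR3 each kept their direction in the 3 passages while their groups overlapped, with log2 differences of 0.12 (adjusted p = 0.604 from limma) and -0.33 (adjusted p = 0.547 from limma). The paraspeckle RNA NEAT1 was at 0.15 (95% interval -0.02 to 0.32).

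Of 24 immediate early genes, 0 were higher and 2 were lower (8.33%, against 5.93% of all genes tested). The number lower was 0 without replicate 1 or without the replicate block and 6 without replicate 3. FOS, a subunit of AP-1, had 6.99 FPKM, 3.94 FPKM and 3.23 FPKM in Short and 4.33 FPKM, 2.502 FPKM and 3.04 FPKM in Long, a log2 difference of -0.38 (standard error 0.11, adjusted p = 0.547 from limma). SRF, the factor that drives many of these genes, had 31.1 FPKM, 31.4 FPKM and 31.2 FPKM in Short and 25.2 FPKM, 28.1 FPKM and 29.8 FPKM in Long. The Short values of SRF were nearly equal, the groups did not overlap, and EV, at 26.2 FPKM, 25.3 FPKM and 25.6 FPKM, lay with or below Long. JUN, the member of highest level, was at -0.13 (95% interval -0.27 to 0.002).

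Of 26 p53 pathway genes, TP53INP1 was higher at 0.22, and RRM2B, a ribonucleotide reductase subunit, and CCNG1 were lower at -0.22 and -0.29. CCNG1, cyclin G1, had 99.9 FPKM, 98.9 FPKM and 109 FPKM in Short and 74.5 FPKM, 74.6 FPKM and 105 FPKM in Long. It was lower in each passage and hardly so in passage 3. Of 36 genes of the unfolded protein and integrated stress response, the amino acid transporter subunit SLC3A2 was higher at 0.13, and the chaperones DNAJB9 and HSP90B1 were lower at -0.25 and -0.16. Of 44 DNA replication genes, the GINS subunit GINS4 was higher at 0.17, and the origin recognition subunits ORC4 and ORC3 were lower at -0.35 and -0.27. Of 31 cholesterol and fatty acid synthesis genes, 0 were higher and 3 were lower, among them INSIG1, which holds back the activation of SREBP, at -0.15. With 1 replicate left out, the number of lower members ranged from 0 to 5 for the p53 list and from 0 to 4 for the cholesterol and fatty acid list. Without the replicate block, 1 member of the p53 list was lower, and the stress response, replication and cholesterol lists had 0 calls. The shares lower were 7.69%, 5.56%, 4.55% and 9.68% for the p53, stress response, replication and cholesterol lists, against 5.93% of all genes tested. The shares higher were 3.85%, 2.78%, 2.27% and 0%, against 1.61%.

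Of 8 replication-dependent histone genes, whose mRNAs lack a poly(A) tail, H2AC20 was higher at 0.32. Of 40 tested genes with a coding Alu exon, the list to which ADARB1 belongs, SLC3A2 was higher and 3 were lower, among them the deubiquitinase UCHL5 at -0.28 and ANKRD26 at -0.36, and after the GC correction 2 were higher and 1 was lower. Of 201 zinc finger genes of chromosome 19, which encode KRAB-type repressors for the most part, 2 were higher (0.995%) and 16 were lower (7.96%), and the median was -0.026. After the GC correction 8 were higher and 7 were lower, without replicate 1 there were 4 higher and 8 lower, without replicate 2 there were 2 higher and 7 lower, and without the replicate block 0 were higher and 1 was lower. ZNF420 had 5.001 FPKM, 6.37 FPKM and 10.2 FPKM in Short and 3.49 FPKM, 4.57 FPKM and 7.52 FPKM in Long, a log2 difference of -0.40 (standard error 0.10, adjusted p = 0.547 from limma). These zinc finger genes share much sequence, so that fragments may be split between them. Over all genes tested 1.61% were higher and 5.93% were lower in the fit as reported. Of the 13801 genes, 520 were higher and 559 lower after the GC correction. The numbers were 279 and 424 without replicate 1, 194 and 417 without replicate 2, and 63 and 84 without the block.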

How the data were processed

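RNA-seq libraries of HEK293 cells were grouped by GEO's labels into EV, Short and Long (n = 3 each). The authors aligned reads first to transcripts of Ensembl and, where unmapped, to the hg19 genome (TopHat 1.4.1), and deposited FPKM for each Ensembl gene and library. The submitters' processing notes also name Cufflinks, without a version or role. FPKM is relative to each library's mapped fragments, so abundant plasmid transcripts lower all other values.

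Values were analysed as log2(FPKM + 1), which understates changes of genes with low FPKM, with limma 3.58.1 in R 4.3.3 (lmFit, and eBayes with an intensity trend). The fit held all 9 libraries, with the replicate number as a block, and the 13801 genes whose mean FPKM was 1 or more. Adjustment was by Benjamini-Hochberg, with a threshold of 0.05. Permutation tests used SciPy 1.17.1 in Python 3.11.15. The fit was tested on simulated data. The block stands for the cell passage named in the study's methods, and same-numbered libraries deviated from their group means together (correlations of 0.327 to 0.813).

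The members and gene lists were chosen with earlier results of these data known. Named genes were ADARB1, ADAR, ADARB2, GAPDH and ACTB, the genes past the threshold, the 8 highest and 8 lowest moderated t values among named genes whose mean was 5 FPKM or more with 1 sign in the 3 passages, and in each list the 3 of smallest p and the one of highest mean FPKM. Other members are named to complete a count or a role, after their values were seen. Gene names and positions came from the GENCODE annotation of GRCh37. The longest annotated transcript gave GC content and length, for 97.08% of the genes tested. GC content was corrected with a loess curve of span 0.3. The alternatives were a pseudocount of 0.1, other scalings, filters and fits, GC correction, and each replicate left out. Editing levels were not analysed here, and some genes that the rule names are not reported here.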

Additional observations from a re-analysis of the deposited data

Results flagged for a closer look

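ENSG00000239935 had different responses to the isoforms when each was set against EV: Short minus EV was 0.54 and Long minus EV was -0.15 on the log2(FPKM + 1) scale. The difference between these responses is the Long minus Short value of -0.69, which passed the adjusted test (adjusted p = 0.00392 from limma). It was lower in Long than in Short in 3 of 3 passages. Over the 12 alternatives the adjusted p from limma ranged from 0.00123 to 1.0, with 8 of 12 past the threshold.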

How the results depend on the processing

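The count of genes past the adjusted test, 1 as reported, was 0 with no trend in eBayes, 0 with no filter on low values, 0 without the replicate block and 3 with only Long and Short in the fit, and it ranged from 0 to 9 when 1 replicate was left out (0, 3 and 9 without replicates 1, 2 and 3). Under the first 4 settings 1014, 1603, 147 and 1261 genes had an unadjusted p under 0.05, and with 1 replicate left out 611 to 1246 did. The mean correlation between passages was 0.156 and 0.240 with a minimum mean of 5 FPKM. The ADARB1 difference stayed below 0 and did not pass the test under any of the 12 alternatives, at -0.33 to -0.21 (adjusted p from limma 0.0633 to 1.0). Of 1224 repeats over 103 single genes, 15 changed sign, all of values close to 0 (adjusted p from limma of 0.753 or above). The first 4 settings leave each log2 difference as it was, so their repeats could not change a sign. After the GC correction ADAR was at -0.0023, FMR1 at 0.0050, SRP9 at 0.088, ACTB at 0.010 and VEGFA at 0.0023. Leaving out 1 replicate gave ranges from -0.030 to 0.019 for ADAR, -0.0037 to 0.19 for DHX9, -0.084 to 0.023 for SRP9, -0.049 to 0.052 for ACTB, -0.013 to 0.060 for HK1, -0.044 to 0.029 for VEGFA, -0.073 to 0.13 for PDK1, -0.0095 to 0.059 for CCNB1, -0.0033 to 0.14 for CHD4 and -0.043 to 0.0015 for MT-CO2. Of the list medians, 8 of 360 moved by more than the SD of the passages. Those same 4 settings could not move a median, and each fit without 1 replicate shares its other passages with the main fit. The count of 8 is therefore not a measure of stability. The cause of these changes was not tested, apart from the smaller number of libraries where a replicate was left out. The table holds no counts, so depth could not be weighed, and small differences of genes with low FPKM could not be resolved with 3 libraries a group.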

Other observations

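The 5 genes with an absolute log2 difference over 1 were chosen here after their values were seen. SNORA71B and SNORA52, small nucleolar RNAs that lie within host genes, were at -1.65 and -1.55, and ENSG00000254673, NEDD8-MDP1 and ENSG00000259506 were at 1.28, 1.11 and 1.04 on the log2(FPKM + 1) scale. Their means over the 9 libraries were 1.16 to 2.77 FPKM, near the filter of 1 FPKM. SNORA71B had 4.93 FPKM, 3.04 FPKM and 1.35 FPKM in Short and was listed at 0, 0 and 0.813 FPKM in Long. With a mean of 1.16 FPKM it passed the filter mainly through the Short libraries. The size of its difference, and any call of it, is therefore in part set by that filter. None of the 5 passed the adjusted test as reported. Without replicate 3, SNORA52 and ENSG00000254673 passed it (adjusted p from limma of 0.00373 and 0.0142), and with only Long and Short in the fit, SNORA52 and NEDD8-MDP1 did (0.0388 and 0.0053 from limma). The 5 were picked by the size of this same difference, so these calls add no separate evidence.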
